A study of Homo sapiens with 8 samples.

Results

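Interferon-stimulated genes (ISGs) were followed in transformed human breast epithelial cells before and after retinoic acid. The set was a named list of 42 genes, each measured at the probe set that named this gene alone in the platform annotation. Where a gene had several such probe sets, the brightest on average was taken. All 42 genes had one, out of 19775 genes with a probe set of their own, and 22 of the 42 had more than 1, so that 76 probe sets in all belonged to the ISGs.

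Transcripts were read from 8 Affymetrix U133 Plus 2.0 arrays that fall into 4 groups of 2. trMCF clone 11 is a single clone, picked by ring cloning from MCF-10F cells that had been exposed to a high dose of estradiol. It was measured as such and after 26 days in 1 μM or 10 μM all trans-retinoic acid (ATRA), the vitamin A metabolite that activates the retinoic acid receptors, in medium renewed every day. MCF-10F, an immortalized breast epithelial line that is regarded as normal-like, was the fourth group. The study used DMSO as vehicle, but no label tells if the untreated trMCF clone 11 cells on the arrays had received it. The first trMCF clone 11 array carries a disease tag of normal that goes against its title, and arrays were grouped by title. Replicate arrays are not stated to be separate cultures, so p-values measure only the spread between these arrays, which may be technical.

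Interferons are secreted proteins by which cells warn each other of viruses. Type I interferons bind the receptor chains IFNAR1 and IFNAR2, whose kinases JAK1 and TYK2 activate transcription factors that enter the nucleus and bind the interferon-stimulated response element (ISRE) in front of target genes. The products of these genes block viral entry, translation and replication, tag or cut viral RNA, or feed back on the pathway, and many epithelial cells keep them at a low level without infection.

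The letters through which ISGs are usually recognised were present in most of their promoters. RefSeq promoter windows on GRCh38.p14, running from 250 bases before to 50 bases after the transcription start, were matched for 35 of the 42 genes. The ISRE core, GAAANNGAAA on either strand, occurred in 25 of the 35 windows (71.4%) and in 1255 of all 35116 windows of that length (3.57%). The interferon-γ activated sequence core TTCNNNGAA, a palindrome in its fixed letters, occurred in 10 of the 35 windows (28.6%) and in 2689 of all windows (7.66%). Cores of both motifs were matched as letters only, which does not show that a factor binds there, and these genes are known as ISGs partly for such elements. The 200 bases before the start are printed for 6 genes chosen for their different behaviour below, with ISRE cores in capitals. On their group means IFIT3, DDX60 and IFI44 were at least 2-fold lower in trMCF clone 11 than in MCF-10F and, with ATRA, above MCF-10F or less than 2-fold below it, IFI44L and EPSTI1 were at least 2-fold below it with and without ATRA, and IFIT1 passed no test.
IFIT3 (chr10:89327797-89327996, + strand): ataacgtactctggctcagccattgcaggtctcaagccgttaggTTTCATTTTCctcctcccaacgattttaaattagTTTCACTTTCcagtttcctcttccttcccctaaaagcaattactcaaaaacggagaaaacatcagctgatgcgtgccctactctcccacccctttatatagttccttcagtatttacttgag
DDX60 (chr4:168318753-168318952, - strand): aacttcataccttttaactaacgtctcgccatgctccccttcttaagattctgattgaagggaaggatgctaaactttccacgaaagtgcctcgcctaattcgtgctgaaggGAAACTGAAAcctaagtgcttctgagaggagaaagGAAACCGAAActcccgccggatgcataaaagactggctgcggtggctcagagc
IFI44 (chr1:78649589-78649788, + strand): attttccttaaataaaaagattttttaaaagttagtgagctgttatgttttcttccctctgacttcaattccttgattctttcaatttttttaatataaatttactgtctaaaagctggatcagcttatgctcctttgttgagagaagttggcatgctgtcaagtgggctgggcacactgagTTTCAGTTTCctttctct
IFI44L (chr1:78620248-78620447, + strand): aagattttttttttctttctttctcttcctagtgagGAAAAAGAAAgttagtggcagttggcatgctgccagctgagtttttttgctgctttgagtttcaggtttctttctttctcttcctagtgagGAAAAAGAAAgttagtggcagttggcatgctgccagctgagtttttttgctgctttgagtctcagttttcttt
EPSTI1 (chr13:42992242-42992441, - strand): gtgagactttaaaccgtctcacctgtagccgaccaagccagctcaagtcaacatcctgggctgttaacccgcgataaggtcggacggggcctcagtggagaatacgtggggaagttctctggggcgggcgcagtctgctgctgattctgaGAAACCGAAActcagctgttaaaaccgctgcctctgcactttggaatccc
IFIT1 (chr10:89392423-89392622, + strand): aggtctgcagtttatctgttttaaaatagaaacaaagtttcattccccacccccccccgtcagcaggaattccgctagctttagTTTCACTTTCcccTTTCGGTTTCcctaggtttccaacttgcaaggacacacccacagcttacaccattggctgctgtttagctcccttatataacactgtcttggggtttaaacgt

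The IFIT3 cores began 156 and 122 bases before the start and the IFIT1 cores 116 and 103 bases before it, all on the strand opposite to the gene. The IFI44L window held the same core at 164 and 73 bases before the start, inside a stretch that is repeated there. Over the ISGs, 37 of 41 cores began before the start, the farthest at 164 bases.

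**Figure D1:**
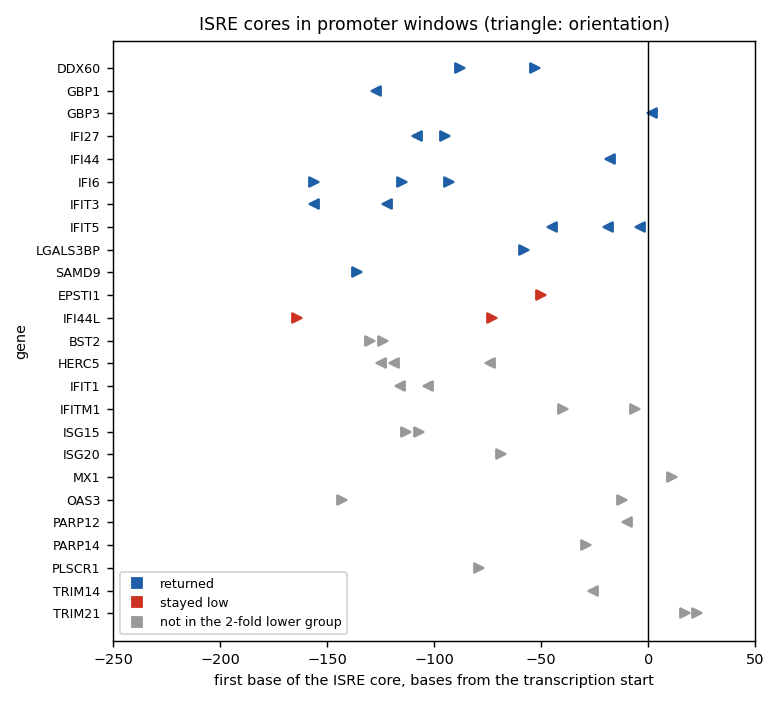
Position of each ISRE core in the promoter windows of the 25 ISGs that hold one, in bases from the transcription start (x axis), 1 row per gene, with triangles pointing in the direction of the core. Blue genes returned with 1 μM ATRA, red genes stayed low and grey genes were not at least 2-fold lower in trMCF clone 11; 37 of the 41 cores lie to the left of the start.

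The arrays were alike in overall signal, with median signals of 47.4 to 48.9, and of 6 direct retinoid targets 2 rose with 1 μM ATRA (CYP26B1 and NR2F1) and 3 with 10 μM ATRA (also CYP26A1) relative to trMCF clone 11. CYP26B1, a retinoic acid degrading enzyme, rose in 1 μM ATRA cells (log2 difference 2.86, adjusted p = 0.016) and in 10 μM ATRA cells (2.74, adjusted p = 0.0026) relative to trMCF clone 11. The epithelial label was matched by the markers, since EPCAM was at 4805 or more and CDH1 at 4472 or more on every array. Not all 7 epithelial markers with a probe set held their level, since KRT14, a basal keratin, was at 3230.3 and 4549 in trMCF clone 11, 212 and 115.8 with 1 μM ATRA, 42.3 and 34.0 with 10 μM ATRA, and 9150 and 1330 in MCF-10F, and was lower at 10 μM than in trMCF clone 11 (-6.66, adjusted p = 0.0084) and than in MCF-10F (-6.52, adjusted p = 0.013). The pairs of arrays were not equally close. Of all genes, 7.33% differed by more than 2-fold between the 2 trMCF clone 11 arrays and 3.84% between the 2 MCF-10F arrays, and among the ISGs these were 6 genes in each group (IFI44L, IFIT1, SAMD9, GBP2, GBP3 and LGALS3BP in trMCF clone 11, and IFI6, IFITM1, OAS1, TRIM22, BST2 and GBP2 in MCF-10F). None of the 42 was more than 2-fold apart between the 1 μM arrays and only IFI44 was between the 10 μM arrays.

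As a group the ISGs were lower in trMCF clone 11 than in MCF-10F, and closer to MCF-10F after ATRA. The median log2 signal of the 42 genes was 6.15 and 5.95 on the trMCF clone 11 arrays, 7.003 and 6.88 with 1 μM ATRA, 6.94 and 6.91 with 10 μM ATRA, and 7.27 and 7.50 in MCF-10F. Both trMCF clone 11 arrays therefore lay below the other 6, and both MCF-10F arrays above them. In RNA of whole cultures, fewer expressing cells and less RNA per cell cannot be told apart.

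**Figure D2:**
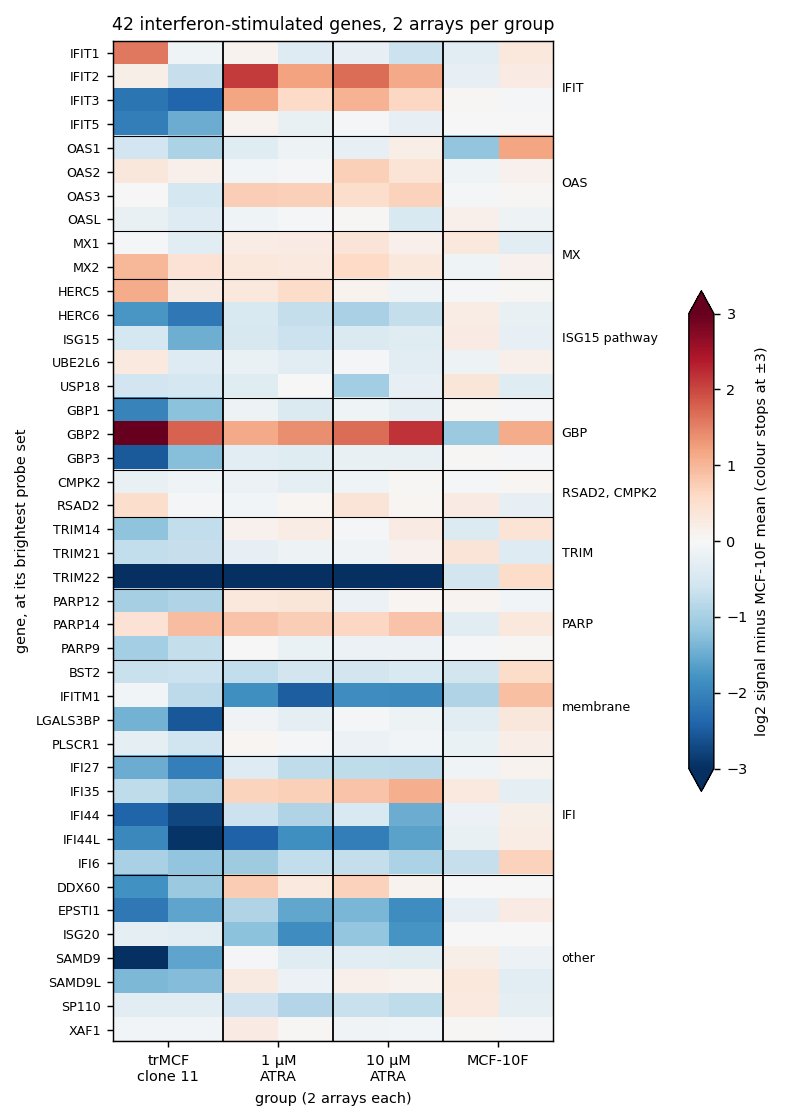
Log2 signal of the 42 ISGs on each of the 8 arrays minus the MCF-10F mean of the same gene (colour, stopping at 3 either way), 1 row per gene grouped by family and 1 column per array. Blue blocks in the trMCF clone 11 columns fade in the ATRA columns for genes such as IFIT5, SAMD9 and GBP3, while TRIM22, IFI44L and EPSTI1 stay blue in all 6 columns of trMCF clone 11 cells.

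The first comparison asked which ISGs the transformed clone had lost. Between trMCF clone 11 and MCF-10F, 10 ISGs fell and none rose at a Benjamini-Hochberg adjusted p under 0.05 in limma, while 2.64% of all genes fell and 1.88% rose. The 10 were IFI44, IFI44L, IFIT3, IFIT5, IFI27, HERC6, EPSTI1, PARP12, TRIM22 and GBP1. The median ISG differed by -0.73 on the log2 scale, against 0.06 for all genes, and 35 of the 42 differences were negative. Both trMCF clone 11 arrays lay below both MCF-10F arrays for 29 of the 42, where 20.8% of all genes did so. In the other fits named next, the share of all genes called was not counted. This count of 10 rests on a spread estimated over 6 arrays, and it was 0 with only the 4 arrays compared or without either 1 μM array, 2 without MCF-10F replicate 1 and 4 without MCF-10F replicate 2. Without the trMCF clone 11 array whose disease tag goes against its title, 11 ISGs fell, and without the other trMCF clone 11 array 15 fell and 3 rose.

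The second comparison asked which ISGs ATRA raised. With 1 μM ATRA, 6 ISGs rose relative to trMCF clone 11 and none fell, against 0.971% of all genes that rose and 0.925% that fell. These were IFI44, IFIT3, IFIT5, IFI35, DDX60 and PARP12. With 10 μM ATRA, tested on all 8 arrays, 15 ISGs rose, against 3.94% of all genes, and ISG20 fell, against 3.89% of all genes. The 15 were the 6 genes above together with IFI27, OAS3, HERC6, SAMD9, SAMD9L, PARP9, GBP1, GBP3 and LGALS3BP. Over the 42 genes the median difference was 0.44 at 1 μM and 0.60 at 10 μM, beside -0.06 and -0.01 for all genes. Both ATRA arrays lay above both trMCF clone 11 arrays for 26 of 42 ISGs at 1 μM, where 24.1% of all genes did so, and for 27 of 42 at 10 μM, where 24.6% did. The counts at the 2 doses come from fits of different size, and on all 8 arrays 16 ISGs rose at 1 μM. For that fit, and for those that follow, the share of all genes called was not counted. A shift in the ISG count between fits may therefore also hold for other genes. Without either 1 μM array none was called at 1 μM, and without trMCF clone 11 replicate 2 there were 12 that rose and 2 that fell. At 10 μM the count was 1 without either 10 μM array, 5 without either 1 μM array and 3 with only the 4 arrays compared.

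Set against MCF-10F, few ISGs passed the test after ATRA, but more of them lay below MCF-10F than among all genes. TRIM22 was the only one that was lower in 1 μM ATRA cells, where 0.47% of all genes were lower, and none was higher, where 0.142% were. TRIM22 and ISG20 were lower in 10 μM ATRA cells, where 1.81% of all genes were lower, and none was higher, where 0.759% were. Both ATRA arrays lay below both MCF-10F arrays for 15 ISGs at 1 μM (35.7%, beside 24.2% of all genes). At 10 μM they did so for 17 ISGs (40.5%, beside 21.0% of all genes). The median ISG differed from MCF-10F by -0.17 at 1 μM and -0.13 at 10 μM, beside 0.00 and 0.05 for all genes. Missing the threshold is no proof of equal levels, and at the unadjusted p 13 ISGs differed from MCF-10F at 1 μM and 16 at 10 μM. How many of all genes did so at the unadjusted p was not counted, so these 2 counts have no background beside them.

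The IFIT family, whose products bind foreign RNA and hold back its translation, split into 2 kinds of behaviour. IFIT3, a partner that stabilises IFIT1 on RNA, had signals of 30.1 and 26.4 in trMCF clone 11, 310.3 and 204 with 1 μM ATRA, 282 and 209.55 with 10 μM ATRA, and 139 and 135 in MCF-10F. No group overlapped the trMCF clone 11 arrays, and all 4 ATRA arrays lay above MCF-10F. IFIT3 differed by -2.28 ± 0.23 (SE) on the log2 scale between trMCF clone 11 and MCF-10F (adjusted p = 0.015), and it rose 8.92-fold with 1 μM ATRA (adjusted p = 0.016) and 8.62-fold with 10 μM ATRA (adjusted p = 0.0024). The second IFIT3 probe set had group mean signals of 97.5 in trMCF clone 11, 122 and 122 with 1 and 10 μM ATRA and 99.3 in MCF-10F, and passed no test, so the probe sets of this gene disagree. IFIT5, which binds RNA without the partners of the others, had 187 and 279 in trMCF clone 11, 836 and 675 with 1 μM ATRA, 763 and 663 with 10 μM ATRA, and 781 and 783 in MCF-10F. It fell in trMCF clone 11 (-1.77 ± 0.23, adjusted p = 0.026) and rose with 1 μM ATRA (1.72 ± 0.23, adjusted p = 0.04) and 10 μM ATRA (1.64 ± 0.22, adjusted p = 0.011), and its second probe set went the same way in each comparison.

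The other IFIT genes did not pass the test. IFIT2, which works with IFIT1 and IFIT3 on viral RNA, had 67.1 and 36.9 in trMCF clone 11, 253 and 136 with 1 μM ATRA, 188 and 131 with 10 μM ATRA, and 49.8 and 70.3 in MCF-10F. All 4 ATRA arrays were above the other 4, but the difference from trMCF clone 11 had an adjusted p of 0.087 at 1 μM and 0.058 at 10 μM, and the second probe set of the gene differed by only 0.37 and 0.34 on the log2 scale. IFIT1, which recognises RNA that lacks a self mark at its cap, was at 98.4 and 29.9 in trMCF clone 11 and between 20.9 and 41.1 on the other 6 arrays. The IFIT1 gene and IFIT5 are neighbours on chromosome 10, as are IFIT2 and IFIT3, and in each pair only 1 gene passed the test between trMCF clone 11 and MCF-10F.

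**Figure D3:**
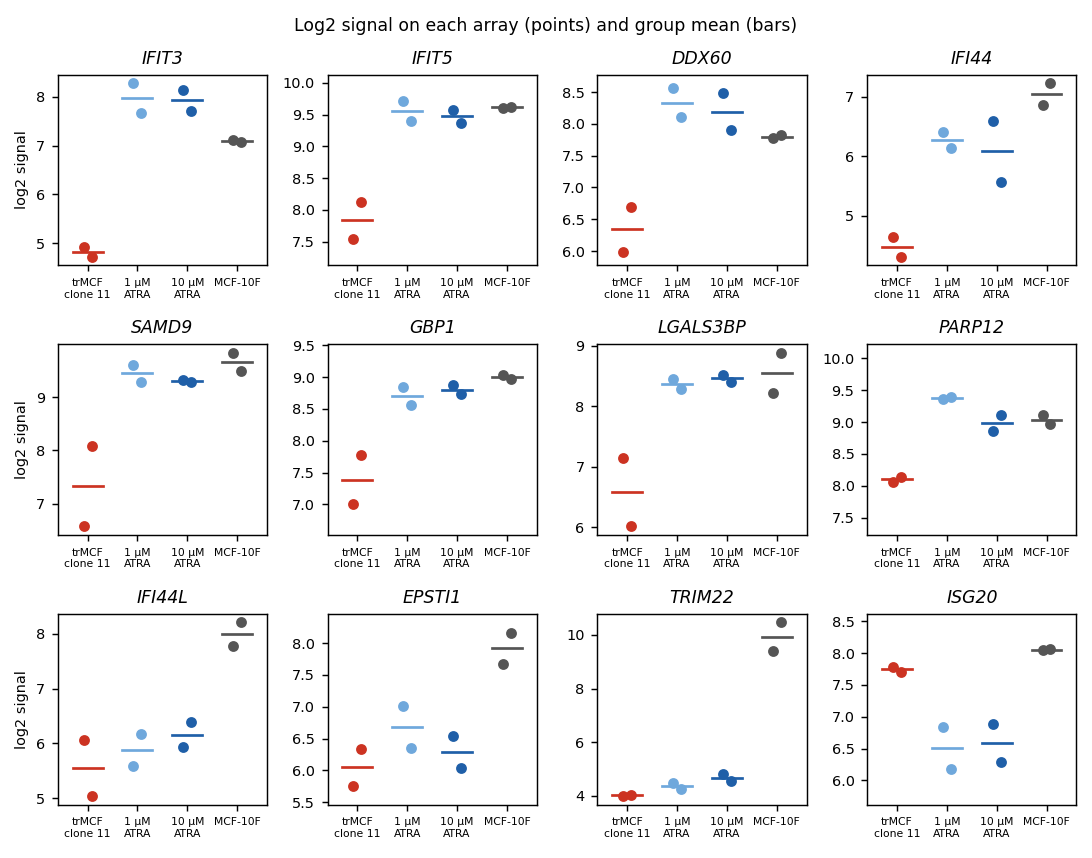
Log2 signal of 12 ISGs on each array (points) with the group mean (bars), groups from left to right being trMCF clone 11, 1 μM ATRA, 10 μM ATRA and MCF-10F; each panel has its own y axis. In the upper 8 panels all ATRA arrays lie above trMCF clone 11, and in the lower row IFI44L, EPSTI1 and TRIM22 lie below MCF-10F on all 6 arrays of trMCF clone 11 cells, and ISG20 is lowest with ATRA.

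Among genes named only for their induction by interferon, the neighbours IFI44 and IFI44L on chromosome 1 are given side by side, and the difference between them was not tested. IFI44, a cytoplasmic protein of interferon-treated cells, was at 25.1 and 19.9 in trMCF clone 11, 84.7 and 70.4 with 1 μM ATRA, 96.9 and 47.4 with 10 μM ATRA, and 116.5 and 149.96 in MCF-10F. IFI44 fell in trMCF clone 11 (-2.57 ± 0.21, adjusted p = 0.0099) and rose at 1 μM (1.79 ± 0.21, adjusted p = 0.031) and 10 μM ATRA (1.60 ± 0.33, adjusted p = 0.038), so that ATRA cells lay between both other groups on every array. A dimmer second probe set of IFI44 differed by -0.74 between trMCF clone 11 and MCF-10F, with an adjusted p of 0.26, and with ATRA by 0.77 at 1 μM (adjusted p = 0.26) and 0.87 at 10 μM (adjusted p = 0.15). IFI44L, its paralog, was at 66.5 and 32.9 in trMCF clone 11, 47.8 and 71.8 with 1 μM ATRA, 60.8 and 83.9 with 10 μM ATRA, and 219.6 and 296 in MCF-10F. Without ATRA it fell (-2.45 ± 0.39, adjusted p = 0.037), and the ATRA arrays overlapped the trMCF clone 11 arrays at both doses. The change of IFI44L with ATRA was 0.32 at 1 μM with a 95% interval of -0.63 to 1.27 and 0.61 at 10 μM with an interval of -0.27 to 1.48.

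The remaining IFI genes followed IFI44 in part. IFI27, a small mitochondrial protein, was at 74.9 and 49.97 in trMCF clone 11, 159 and 122 with 1 μM ATRA, 123 and 121 with 10 μM ATRA, and 194 and 225 in MCF-10F. IFI27 fell in trMCF clone 11 (-1.77 ± 0.25, adjusted p = 0.03) and rose with 10 μM ATRA (0.999 ± 0.23, adjusted p = 0.048), with 1.19 ± 0.25 and an adjusted p of 0.081 at 1 μM. IFI35, a leucine zipper protein, was at 46.9 and 37.5 in trMCF clone 11, 127 and 131 with 1 μM ATRA, 145 and 169 with 10 μM ATRA, and 97.3 and 64.8 in MCF-10F. It rose with both doses (1.62 ± 0.24, adjusted p = 0.045, and 1.90 ± 0.22, adjusted p = 0.008) and all ATRA arrays were above MCF-10F, although its difference between trMCF clone 11 and MCF-10F had an adjusted p of 0.1. IFI6, which counters apoptosis, was at 35.2 and 30.5 in trMCF clone 11, between 33.2 and 41.7 with ATRA, and at 42.4 and 112 in MCF-10F, where the 2 arrays were far apart.

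DDX60, a helicase described as an aid to viral RNA sensing, and the paralogs SAMD9 and SAMD9L, which restrict poxviruses, had ATRA means within 2-fold of MCF-10F. DDX60 was at 63.3 and 104 in trMCF clone 11, 379 and 275 with 1 μM ATRA, 357 and 239 with 10 μM ATRA, and 220.2 and 226 in MCF-10F. It rose with 1 μM (1.99 ± 0.28, adjusted p = 0.043) and 10 μM ATRA (1.85 ± 0.30, adjusted p = 0.019) to values above both MCF-10F arrays, while its difference between trMCF clone 11 and MCF-10F was -1.46 with an adjusted p of 0.054. SAMD9 was at 95.6 and 272 in trMCF clone 11, 780 and 626 with 1 μM ATRA, 638 and 625 with 10 μM ATRA, and 910 and 716 in MCF-10F. The 2 trMCF clone 11 arrays were far apart but both were below all others, and SAMD9 rose at 10 μM (1.97 ± 0.43, adjusted p = 0.044), while the difference between trMCF clone 11 and MCF-10F was -2.32 ± 0.48 with an adjusted p of 0.062. SAMD9L was at 36.5 and 37.6 in trMCF clone 11, 112 and 82.6 with 1 μM ATRA, 104 and 101 with 10 μM ATRA, and 116 and 74.6 in MCF-10F, and it rose at 10 μM (1.47 ± 0.24, adjusted p = 0.019), with -1.33 and an adjusted p of 0.058 between trMCF clone 11 and MCF-10F.

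The guanylate binding proteins, large GTPases that coat intracellular pathogens, were represented by GBP1, GBP2 and GBP3, neighbours on chromosome 1, of which GBP1 and GBP3 were called and GBP2 was not. GBP1 was at 128 and 219 in trMCF clone 11, 461 and 379 with 1 μM ATRA, 471 and 425 with 10 μM ATRA, and 527 and 503 in MCF-10F. It fell in trMCF clone 11 (-1.62 ± 0.28, adjusted p = 0.041) and rose with 10 μM ATRA (1.42 ± 0.25, adjusted p = 0.024), and 2 of its 3 other probe sets passed the same tests in the same direction. The dimmest GBP1 probe set passed no test and did not rise with ATRA. Its group mean signals were 44.7 in trMCF clone 11, 28.5 and 39.5 with 1 and 10 μM ATRA, and 124.6 in MCF-10F. GBP3 was at 161 and 379 in trMCF clone 11, 736 and 719.8 with 1 μM ATRA, 798 and 788 with 10 μM ATRA, and 953 and 896 in MCF-10F, and it rose at 10 μM (1.68 ± 0.35, adjusted p = 0.038), with -1.90 and an adjusted p of 0.059 between trMCF clone 11 and MCF-10F. GBP2 had 1799 and 606 in trMCF clone 11, 392 and 463 with 1 μM ATRA, 562 and 798 with 10 μM ATRA, and 81.7 and 384 in MCF-10F. Its difference of 2.56 between trMCF clone 11 and MCF-10F had a 95% interval of 0.58 to 4.54 and an adjusted p of 0.15, so with this spread it did not pass the test.

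PARP12 and PARP9, ADP-ribosylating enzymes of the antiviral response, had closely spaced arrays within each group. PARP12 was at 266 and 283 in trMCF clone 11, 655 and 674 with 1 μM ATRA, 466 and 551 with 10 μM ATRA, and 553 and 501 in MCF-10F. PARP12 fell in trMCF clone 11 (-0.94 ± 0.14, adjusted p = 0.034) and rose at 1 μM (1.28 ± 0.14, adjusted p = 0.028) and 10 μM ATRA (0.89 ± 0.14, adjusted p = 0.019). PARP9 was at 115 and 142 in trMCF clone 11, 232 and 202 with 1 μM ATRA, 205 and 207 with 10 μM ATRA, and 228 and 237 in MCF-10F, and it rose at 10 μM (0.69 ± 0.15, adjusted p = 0.047), whereas its other probe set did not pass (0.55, adjusted p = 0.15). PARP14 was between 111 and 263 on all arrays and passed no test.

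Grouped here under the ISG15 pathway, which joins a ubiquitin-like protein to other proteins, were 5 genes. HERC6 alone was called, and ISG15 itself and the ligase HERC5 were not. HERC6, a ligase related to the human ISG15 ligase HERC5, was at 58.5 and 44.2 in trMCF clone 11, 143 and 118 with 1 μM ATRA, 100.3 and 119 with 10 μM ATRA, and 228 and 167 in MCF-10F. It fell in trMCF clone 11 (-1.94 ± 0.23, adjusted p = 0.022) and rose at 10 μM (1.10 ± 0.22, adjusted p = 0.035). The second HERC6 probe set, at group means of 9.35 to 12.2 where background limits a reading, passed neither test (0.20, adjusted p = 0.58, and 0.18, adjusted p = 0.71). Both calls were lost with the mean over probe sets. HERC5, its neighbour on chromosome 4, was at 46.4 and 26.0 in trMCF clone 11 and between 19.9 and 31.6 on the other arrays. ISG15 itself was at 155 and 81.3 in trMCF clone 11, 160.3 and 144 with 1 μM ATRA, 165 and 173 with 10 μM ATRA, and 267 and 187 in MCF-10F, with an adjusted p of 0.18 between trMCF clone 11 and MCF-10F. The conjugating enzyme UBE2L6 and the ISG15 protease USP18 passed no test.

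LGALS3BP, a secreted glycoprotein that binds galectins, was at 141 and 64.6 in trMCF clone 11, 350.3 and 311 with 1 μM ATRA, 366 and 338 with 10 μM ATRA, and 299 and 472 in MCF-10F. It rose at 10 μM (1.88 ± 0.37, adjusted p = 0.032), and its difference of -1.98 ± 0.41 between trMCF clone 11 and MCF-10F had an adjusted p of 0.062. OAS3, which makes the oligoadenylate signal that switches on RNase L, was at 345 and 242 in trMCF clone 11, 575 and 569 with 1 μM ATRA, 504 and 559 with 10 μM ATRA, and 338 and 357 in MCF-10F. It rose at 10 μM relative to trMCF clone 11 (0.88 ± 0.19, adjusted p = 0.041), although the trMCF clone 11 and MCF-10F arrays overlapped, and a dimmer second probe set did not (0.03, adjusted p = 0.96). OAS1, beside OAS3 on chromosome 12, was at 180 and 927 in the 2 MCF-10F arrays and between 213 and 467 on all others, so that no comparison with MCF-10F could be made beyond this spread.

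TRIM22 showed the widest gap of the 42 genes. This antiviral ubiquitin ligase was at 15.9 and 16.2 in trMCF clone 11, 22.3 and 19.0 with 1 μM ATRA, 27.7 and 23.2 with 10 μM ATRA, and 668 and 1423 in MCF-10F. It was at least 60.5-fold lower in trMCF clone 11 than in MCF-10F, with signals under 16 raised to 16 (fitted log2 difference -5.92 ± 0.35, adjusted p = 0.0053). On each array 21.5% to 23.7% of all signals were under 16, so TRIM22 in trMCF clone 11 sat where background limits how low a signal can be read. It stayed lower than MCF-10F by -5.57 in 1 μM ATRA cells (adjusted p = 0.0086) and by -5.26 in 10 μM ATRA cells (adjusted p = 0.0011). Both ATRA groups lay above both trMCF clone 11 arrays, but these small differences did not pass the test (adjusted p = 0.65 and 0.32). TRIM21, another member of the TRIM family, was at 77.9 to 171 and passed no test. TRIM14 was at 401 to 1216 at its brightest probe set, which passed no test (-0.97 in trMCF clone 11 relative to MCF-10F, adjusted p = 0.15, and 1.15 and 1.08 with 1 and 10 μM ATRA, adjusted p = 0.12 and 0.073). A second of its 5 probe sets passed each of these, at -0.81 (adjusted p = 0.044), 1.19 (adjusted p = 0.031) and 1.32 (adjusted p = 0.0049), so the call for TRIM14 depends on the probe set.

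EPSTI1, named for epithelial stromal interaction, was at 54.3 and 81.2 in trMCF clone 11, 129.6 and 81.6 with 1 μM ATRA, 93.1 and 66.0 with 10 μM ATRA, and 203 and 287 in MCF-10F. It fell in trMCF clone 11 (-1.86 ± 0.32, adjusted p = 0.044) and all ATRA arrays remained below both MCF-10F arrays, although that gap did not pass the test (-1.23 at 1 μM, adjusted p = 0.25, and -1.62 at 10 μM, adjusted p = 0.062). Its dimmer second probe set differed from MCF-10F by -1.29 in trMCF clone 11, -1.26 at 1 μM and -1.75 at 10 μM.

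ISG20, an exonuclease that degrades viral RNA, was the 1 gene of the list that fell with ATRA. It was at 220 and 209 in trMCF clone 11, 114 and 72.8 with 1 μM ATRA, 118 and 77.9 with 10 μM ATRA, and 265 and 266 in MCF-10F. Trends were alike at both doses, and the test was passed at 10 μM against trMCF clone 11 (-1.16 ± 0.26, adjusted p = 0.049) and MCF-10F (-1.47, adjusted p = 0.046), with adjusted p of 0.066 and 0.08 at 1 μM. The second ISG20 probe set fell by 1.37 at 10 μM relative to trMCF clone 11 (adjusted p = 0.013). IFITM1, a membrane protein that blocks viral entry, was at 178 and 109 in trMCF clone 11, 52.1 and 33.7 with 1 μM ATRA, 51.5 and 50.02 with 10 μM ATRA, and 100.06 and 352 in MCF-10F. The ATRA arrays were lowest for this gene too, but it passed no test, and its probe set may also bind transcripts of near-identical IFITM genes.

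Of the 42 ISGs, 7 had a mean signal under the lowest array median of 47.4 in every group, namely MX1, MX2, OAS2, RSAD2, CMPK2, HERC5 and XAF1, and none of them was called in any comparison. MX1, a GTPase that traps viral nucleocapsids and is widely used as an interferon readout, was between 20.5 and 33.4 on all arrays. RSAD2 and CMPK2, neighbours on chromosome 2 that act together on antiviral nucleotides, were between 11.49 and 19.6 and between 6.94 and 8.86. PLSCR1, a membrane scramblase, was at 1526 to 2677 and passed no test. OASL, SP110 and BST2 were also without a call.

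Which ISGs returned was described with a rule on group means and no test, since the differences share arrays. Of the 42 genes, 15 were at least 1 lower on the log2 scale in trMCF clone 11 than in MCF-10F with arrays that did not overlap (35.7%, and 6.38% of all genes). By that rule IFI6 was just inside at -1.07 and ISG15 just outside at -0.99. A gene was said to have returned if its ATRA mean was less than 1 below MCF-10F, and to have stayed low if it was at least 1 below and had regained less than 50% of the difference. At each dose 12 of the 15 returned, namely IFI44, IFIT3, IFIT5, IFI6, IFI27, HERC6, DDX60, SAMD9, SAMD9L, GBP1, GBP3 and LGALS3BP, and 3 stayed low, namely IFI44L, EPSTI1 and TRIM22. Of all 1261 genes that met the first condition, 74.3% returned at 1 μM and 71.2% at 10 μM, so the 80% of the ISGs was close to the share of other lowered genes.

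Within the returned genes the share of the gap regained was uneven. IFIT3 regained 138% at 1 μM and 136% at 10 μM and DDX60 137% and 127%, which placed both above MCF-10F. IFIT5, SAMD9, SAMD9L, GBP1, GBP3 and LGALS3BP regained between 81.5% and 104% at 1 μM and between 84.8% and 110.4% at 10 μM. IFI44, IFI27 and HERC6 regained 67.1% to 69.8% at 1 μM and 56.4% to 62.4% at 10 μM, and IFI6 only 15.9% and 22.0%, meeting the rule because its gap was small at the outset. IFI44L regained 13.2% and 24.9% and EPSTI1 33.9% and 12.9%, and no share is given for TRIM22, whose trMCF clone 11 signals were near background. Without MCF-10F replicate 1 the rule gave 12 returned and 7 that stayed low, and without MCF-10F replicate 2 it gave 16 and 2, so the class of genes near its limits depended on that pair of arrays. An ISRE core was found in 10 of the 12 promoter windows of returned genes and in both windows matched for the genes that stayed low.

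**Figure D4:**
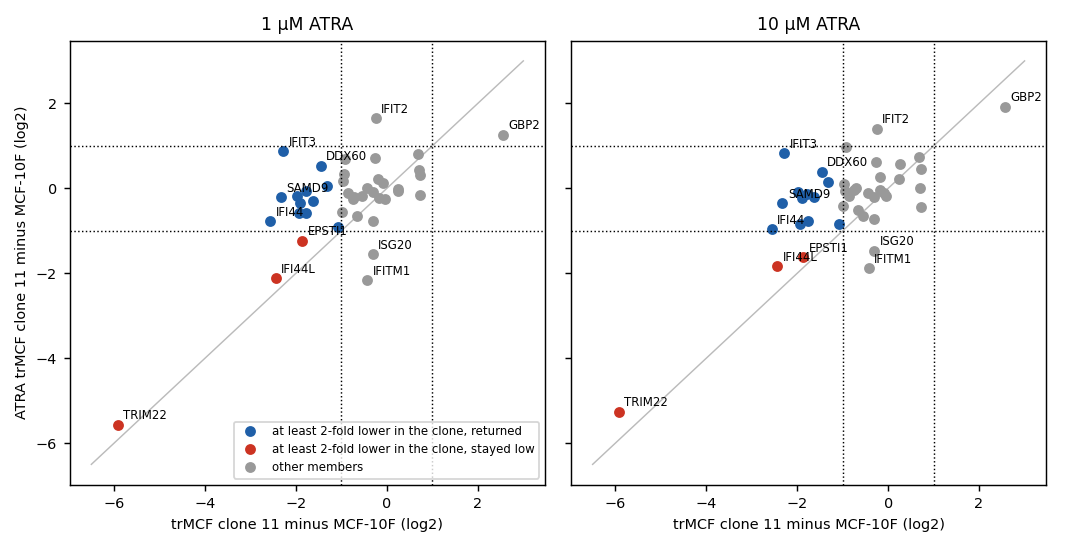
Difference from MCF-10F in group mean log2 signal of each of the 42 ISGs, in trMCF clone 11 (x axis) and in trMCF clone 11 with ATRA (y axis; 1 μM left, 10 μM right); dotted lines mark 2-fold, the grey diagonal marks equal differences, and both axes share the MCF-10F arrays. The 12 blue genes lie above the lower dotted line, and the 3 red genes, TRIM22, IFI44L and EPSTI1, lie below it at both doses.

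The ATRA doses could hardly be told apart in these genes. In a fit of the 4 ATRA arrays no ISG and no other gene passed between 10 μM and 1 μM, with 0.0% of all genes lower and 0.0% higher. An unadjusted p under 0.05 was found for 4 ISGs, and for 3719 of all 54613 probe sets. The widest difference among the 42 was 0.65, for GBP2, and the median was 0.04, beside 0.01 for all genes. For 40 of the 42 the 95% interval lay within 2-fold either way, although on all 8 arrays, whose spread was wider, this held for 29. A change of these genes with the higher dose that is smaller than the intervals was not detectable with 2 arrays a group.

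**Figure D5:**
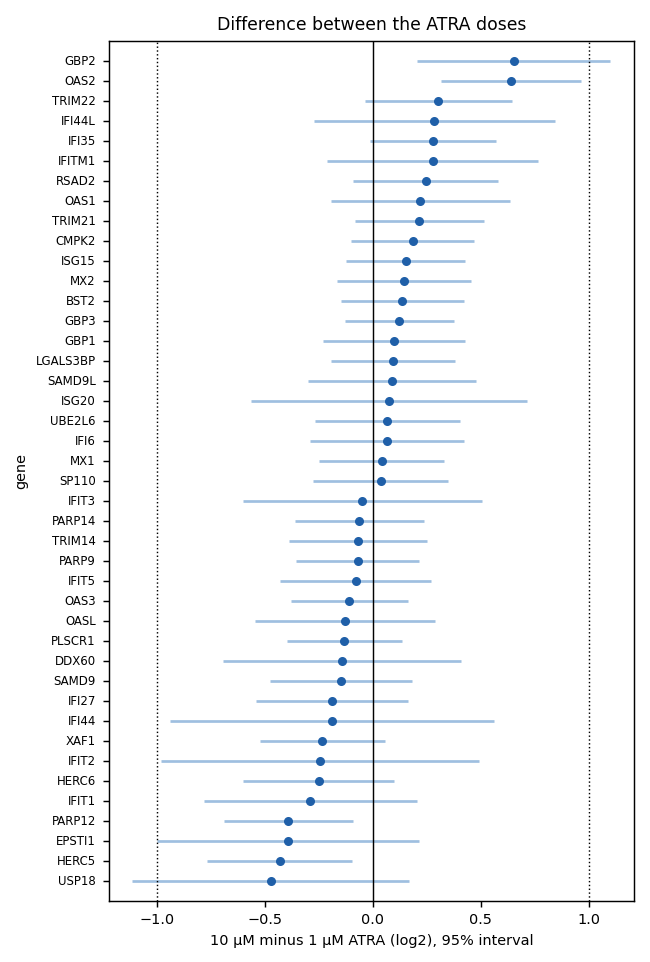
Difference in log2 signal between 10 μM and 1 μM ATRA for each of the 42 ISGs (x axis, points) with its 95% interval from limma on the 4 ATRA arrays (lines), sorted by size, with dotted lines at 2-fold. The points lie between -0.47 and 0.65, and 40 of the 42 intervals stay inside the dotted lines.

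Upstream of the ISGs, the ligands were near the bottom of the signal range and calls were made for the receptor chain IFNAR1, whose probe sets disagree, and the sensor TLR3. Of 9 interferon genes listed, 8 had a probe set of their own, none reached a signal of 50 in any group and none was called. IFNB1, the interferon that most infected cells make first, was between 14.1 and 20.0 on all arrays. IFNAR1, the receptor chain that pairs with TYK2, had at its brightest probe set 113 and 98.1 in trMCF clone 11, 205 and 284 with 1 μM ATRA, 224 and 289 with 10 μM ATRA, and 301 and 345 in MCF-10F. It fell in trMCF clone 11 (-1.61, adjusted p = 0.025) and rose with 10 μM ATRA (1.27, adjusted p = 0.021), with 1.19 and an adjusted p of 0.057 at 1 μM. It was the only one of the 6 receptor genes called at its brightest probe set. Of its 3 other probe sets, 1 went the same way (-1.64, adjusted p = 0.017, and 1.30 at 10 μM, adjusted p = 0.0088), 1 was not called, and 1 went the opposite way, higher in trMCF clone 11 than in MCF-10F (1.28, adjusted p = 0.025) and lower with 10 μM ATRA (-1.13, adjusted p = 0.016). The direction for the IFNAR1 transcript as a whole is therefore not settled by these arrays. IFNLR1, another of the 6 receptor genes, had a dimmer second probe set that was lower in trMCF clone 11 than in MCF-10F (-1.55, adjusted p = 0.037). It was also lower than MCF-10F with 10 μM ATRA (-1.74, adjusted p = 0.015). The brightest IFNLR1 probe set passed neither test (0.14, adjusted p = 0.74, and 0.03, adjusted p = 0.97). TLR3, the endosomal sensor of double-stranded RNA, was at 14.3 and 14.5 in trMCF clone 11, 146 and 143 with 1 μM ATRA, 155 and 161 with 10 μM ATRA, and 86.7 and 144 in MCF-10F. TLR3 fell in trMCF clone 11 (-2.95, adjusted p = 0.011) and rose at 1 μM (3.33, adjusted p = 0.016) and 10 μM ATRA (3.46, adjusted p = 0.0018). Its trMCF clone 11 signals were under 16, where background limits a reading, and with them raised to 16 TLR3 was at least 6.97-fold lower in trMCF clone 11 than in MCF-10F and at least 9.04-fold and 9.89-fold higher with 1 and 10 μM ATRA than in trMCF clone 11.

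Of 11 sensors and adaptors with a probe set, TLR3 was the only one called at its brightest probe set in the 6-array fit. EIF2AK2, the RNA-activated kinase PKR, rose in addition at 10 μM (0.65, adjusted p = 0.0499). Its other probe sets did not pass (0.49, adjusted p = 0.14, and 0.17, adjusted p = 0.81). The probe sets of RIGI, another of the 11, disagree. A second of its 3 was lower in trMCF clone 11 than in MCF-10F (-1.59, adjusted p = 0.031) and rose at 10 μM (1.07, adjusted p = 0.039). The brightest passed neither test (-0.90, adjusted p = 0.082, and 0.33, adjusted p = 0.43). Among 10 kinases and transcription factors none was called in the 6-array fit, and TYK2 (0.82, adjusted p = 0.039) and IRF1 (1.22, adjusted p = 0.028) rose with 10 μM ATRA. A second IRF5 probe set fell with 10 μM ATRA relative to trMCF clone 11 (-0.95, adjusted p = 0.0497), but the brightest did not pass (-0.30, adjusted p = 0.66). PTPN2, a phosphatase that switches off JAK signalling, was at 2183 and 1980.2 in trMCF clone 11, 1037 and 954 with 1 μM ATRA, 1004 and 1040.03 with 10 μM ATRA, and 658 and 1008 in MCF-10F. It was higher in trMCF clone 11 than in MCF-10F (1.35, adjusted p = 0.042) and lower with 10 μM ATRA than in trMCF clone 11 (-1.02, adjusted p = 0.036), and a second of its 7 probe sets passed the same tests while the others did not. The other 5 negative regulators were not called at their brightest probe set. A second of the 4 SOCS3 probe sets fell relative to trMCF clone 11 with 1 μM ATRA (-2.15, adjusted p = 0.043) and 10 μM ATRA (-2.65, adjusted p = 0.0073). The brightest did not pass at either dose (-0.29, adjusted p = 0.40, and -0.28, adjusted p = 0.38), so the SOCS3 probe sets disagree. Of 15 antigen processing genes, none was called between trMCF clone 11 and MCF-10F at its brightest probe set. At 10 μM the brightest probe sets of TAP2, PSMB9 and PSMB10 rose and that of HLA-E fell relative to trMCF clone 11. The other TAP2 probe sets did not pass (-0.04, 0.48 and 0.05). A second HLA-E probe set passed (-1.77, adjusted p = 0.047) and another did not (-0.72, adjusted p = 0.17).

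Markers of other cell types were set beside these patterns. Of 11 fibroblast markers, 4 fell in trMCF clone 11 relative to MCF-10F (COL1A2, DCN, POSTN and FN1), and 4 and 5 were lower than MCF-10F with 1 and 10 μM ATRA. Their summed signal was 1196 and 1885 in trMCF clone 11, 574 and 635 with 1 μM ATRA, 743 and 698 with 10 μM ATRA, and 29693 and 21069 in MCF-10F. In sum these genes, some of which epithelial cells can also express, were thus higher on both MCF-10F arrays than on the other 6. So were TRIM22, IFI44L and EPSTI1, but also ISGs that returned by the rule, such as IFI44, IFI27, HERC6, GBP1 and GBP3. POSTN was at 9.24 to 10.1 on all 6 arrays of trMCF clone 11 cells and at 3968 and 2320.4 in MCF-10F. Of 8 immune cell markers with a probe set, 1 fell in trMCF clone 11 (CORO1A), and PTPRC, which marks all leukocytes, was at 9.93 to 14.4 on every array. The immune sum was 388 and 299 in trMCF clone 11, 757 and 650.3 with 1 μM ATRA, 835 and 903 with 10 μM ATRA, and 349 and 681 in MCF-10F, and on the ATRA arrays most of it was CD14, at 436 to 661. No endothelial marker of 5 was called, and their sum of 251 and 366 in trMCF clone 11, 685 and 867 with 1 μM ATRA, 936 and 1290.03 with 10 μM ATRA, and 200.04 and 1172 in MCF-10F was mostly PECAM1. The other endothelial markers, CDH5, VWF, KDR and TEK, were at 45.0 or less on every array, and the fibroblast genes COL3A1, PDGFRA and LUM at 25.4 or less. The part of these other markers in the ISG results was not tested.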

How the data were processed

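The deposited values are signal intensities on a linear scale, 1 per probe set and array, that the authors had summarised from the probes and scaled between arrays. Global scaling in MAS 5.0 and Iterative Plier 16 are both mentioned in the study's methods without saying which gave the deposited numbers, so detection calls and background could not be recomputed. How background was removed bears most on dim genes, whose fold changes it can stretch or shrink.

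Log2 signals were used as they stood. The 62 control probe sets of 54675 were dropped, which left 54613 for the tests; 41091 named 1 gene, 1801 several and 11721 none in the annotation. Groups were compared with limma 3.58.1 in R 4.3.3 (lmFit, eBayes, Benjamini-Hochberg over all 54613). MCF-10F, trMCF clone 11 and 1 μM ATRA formed 1 fit of 6 arrays, as in the study, the 10 μM group was tested on all 8 arrays, and the doses were compared on their 4 arrays. Differences share arrays: every comparison with trMCF clone 11 uses the same 2 arrays, and likewise for MCF-10F. Standard errors and intervals are those of the fits, and 2 arrays a group limit the precision. The fits were tested on simulated data with known changes. Promoter sequences are RefSeq's, on GRCh38.p14; all 42 genes were found in the RefSeq gene table and 35 in the promoter table. Tables were read with pandas 2.3.3 and figures drawn with matplotlib 3.10.9.

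Values on every array were given for ISGs with an adjusted p under 0.05 in any comparison or within the return rule, and for up to 3 others per family with the highest level or widest difference. Pathway genes were named if called in the 6-array fit at the brightest probe set. Those called at 10 μM, and RIGI, SOCS3, IFNLR1 and IRF5 for another probe set, were added after their values were seen. The ISGs and all lists were chosen with earlier results of these data known, so they are no independent test of those results. The alternatives were other thresholds, arrays in the fit, quantile normalization, a filter on dim probe sets, another prior, the replicate number as a block, a floor of 16, another choice among a gene's probe sets, and omission of each array singly.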

Additional observations from a re-analysis of the deposited data

Results flagged for a closer look

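OAS2, which makes an oligoadenylate signal, was picked out because its arrays moved in opposite ways at the doses: signals were 25.4 and 25.6 with 1 μM ATRA, both below the trMCF clone 11 arrays at 34.1 and 30.0, and 44.3 and 35.8 with 10 μM ATRA, both above them. The doses differed by 0.64 on the log2 scale, with an adjusted p of 0.73 in limma on the 4 ATRA arrays, so the difference did not pass the test, and the other 2 OAS2 probe sets differed by -0.09 and 0.10.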

How the results depend on the processing

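Counts of called ISGs depended on the arrays that set the spread. For no alternative was the share of all genes called counted, so these counts have no background beside them. A floor of 16, which gave dim probe sets no spread at all and lowered the prior to 0.44 degrees of freedom, left 0 lower in trMCF clone 11, 0 higher and 0 lower than MCF-10F at 1 μM, and 3 higher and 1 lower than MCF-10F at 10 μM. A fit of all 8 arrays gave 17 lower in trMCF clone 11, 16 higher at 1 μM and 2 lower than MCF-10F at 1 μM. Only the 4 arrays compared gave 0 lower in trMCF clone 11, 2 lower than MCF-10F at 1 μM and 3 higher at 10 μM. An unadjusted p with a fold of 2 gave 15 higher at 1 μM, and 5 lower than MCF-10F at either dose, and this rule was not counted over all genes. The mean over probe sets gave 2 and 4 lower than MCF-10F at 1 and 10 μM, and quantile normalization gave 1 at 10 μM. With each array left out in turn, counts ranged over 0 to 15 lower in trMCF clone 11, 0 to 12 higher and 0 to 2 lower than MCF-10F at 1 μM, 1 to 15 higher and 1 to 4 lower than MCF-10F at 10 μM, and 12 to 16 returned. The cause of these shifts was not tested beyond the number of arrays in each fit. No called ISG reversed direction in any alternative, but not every other probe set was tried singly. Of the 8 other probe sets of ISGs called between trMCF clone 11 and MCF-10F, 7 went the same way as the brightest. At 10 μM relative to trMCF clone 11, 12 of 13 did. IFIT3 kept its rise and TRIM22 its deficit against MCF-10F at 10 μM in all 16 alternatives run, while both lost the call at 1 μM without either 1 μM array. For both genes 1 of the 16, another pick among the probe sets, returned the same probe set and so could not differ. TRIM22 has only 1 probe set, so its mean over probe sets was that probe set too. The second IFIT3 probe set alone differed by 0.32 at 10 μM relative to trMCF clone 11 (adjusted p = 0.41).

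Nothing in the labels ties equal replicate numbers, and the deviations of same-numbered arrays correlated between -0.06 and 0.35, so the numbers were not taken as pairs. With the replicate number as a block, 6 ISGs were lower in trMCF clone 11, 2 higher at 1 μM and 13 higher at 10 μM.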
